A study of Mus musculus with 2 samples.

Results

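Glycolysis and the transcriptional response to low oxygen were followed through 34 genes in cultured mouse embryonic stem cells. The 34 genes, of 32285 measured, were taken by symbol. They comprised 20 genes of sugar uptake, glycolysis and lactate export and 14 targets or regulators of the hypoxia response. The cultures were of 9 C3H/HeSn-Paf/J embryonic stem cell lines, 3 derived from XX, 3 from XO and 3 from XY embryos, which were pooled and profiled by droplet single-cell RNA sequencing. Irradiated embryonic fibroblasts served as feeders, and the medium held serum and leukaemia inhibitory factor. The library called time 1 is of early-passage cultures, and time 2 is of the cultures 10 further passages on. With 1 library per time point, and cells not mapped to lines, no test between time points was possible. Differences in passage, line composition, chromosome gains, handling and library preparation cannot be told apart.

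Glycolysis splits glucose to pyruvate in the cytosol, and lactate dehydrogenase turns pyruvate into lactate, which leaves the cell through monocarboxylate transporters. Many of its genes are direct targets of hypoxia-inducible factors, whose alpha subunits are hydroxylated by the Egln enzymes when oxygen is present, bound by the von Hippel-Lindau protein and degraded. At low oxygen the alpha subunit persists, pairs with Arnt and binds DNA at short sites built around A/GCGTG. Naive embryonic stem cells are known to use both respiration and glycolysis, and primed epiblast cells to lean more on glycolysis.

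RefSeq promoter windows on build GRCm38.p6, each of 300 bases with 250 before and 50 after an annotated start, were found for 31 of the 34 genes. Slc2a3, Ndrg1 and Bhlhe40 had no entry in that set. The letters ACGTG or GCGTG, on either strand, were in at least 1 window of 29 of the 31 genes, or 93.5%, and in 46.7% of 27025 genes with windows. Taken window by window, ACGTG was in 57.8% of 45 windows of these genes and in 19.6% of all 32851 windows. These windows were richer in CpG than the whole set, with a median of 6.67 against 2.33 CpG per 100 bases. Among windows with at least 5 CpG per 100 bases, ACGTG was in 66.7% of 30 windows of these genes and 28.4% of 11378 windows in all, while GCGTG was in 60.0% and 60.6%. At least 1 of the 2 was in 86.7% and 71.4% of those windows. The 250 bases before the start are shown for 4 genes whose levels recur in the results and for Tpi1, whose window held neither set of letters, read 5′ to 3′ on the gene's strand with every match in capitals. A match describes letters only, and binding was not measured.
Bnip3, chr7:138909507-138909756, - strand: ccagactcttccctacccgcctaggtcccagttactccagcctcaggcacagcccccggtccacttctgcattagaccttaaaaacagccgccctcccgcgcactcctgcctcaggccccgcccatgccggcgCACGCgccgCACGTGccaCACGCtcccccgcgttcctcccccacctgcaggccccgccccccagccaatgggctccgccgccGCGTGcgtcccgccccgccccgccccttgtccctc
Pgk1, chrX:106186850-106187099, + strand: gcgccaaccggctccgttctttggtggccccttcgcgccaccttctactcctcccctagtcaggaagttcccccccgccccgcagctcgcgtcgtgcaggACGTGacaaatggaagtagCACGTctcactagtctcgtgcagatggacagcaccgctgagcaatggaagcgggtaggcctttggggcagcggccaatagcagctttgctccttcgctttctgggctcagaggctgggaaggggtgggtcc
Ldha, chr7:46845554-46845803, + strand: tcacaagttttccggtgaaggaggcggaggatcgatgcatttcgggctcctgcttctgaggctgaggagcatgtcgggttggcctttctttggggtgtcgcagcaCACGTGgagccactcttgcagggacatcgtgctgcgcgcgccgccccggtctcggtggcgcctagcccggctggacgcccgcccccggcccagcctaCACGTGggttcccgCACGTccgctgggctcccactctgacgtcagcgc
Slc2a1, chr4:119108495-119108744, + strand: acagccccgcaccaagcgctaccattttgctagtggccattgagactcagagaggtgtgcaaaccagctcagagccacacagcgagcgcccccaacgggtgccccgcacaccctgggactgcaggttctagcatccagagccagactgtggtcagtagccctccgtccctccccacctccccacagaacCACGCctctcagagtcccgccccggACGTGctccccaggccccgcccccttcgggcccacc
Tpi1, chr6:124814159-124814408, - strand: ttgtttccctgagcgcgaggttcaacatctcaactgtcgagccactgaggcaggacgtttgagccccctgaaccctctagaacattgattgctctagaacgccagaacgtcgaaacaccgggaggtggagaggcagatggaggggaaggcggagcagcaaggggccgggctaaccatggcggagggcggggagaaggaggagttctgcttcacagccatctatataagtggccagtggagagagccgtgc
The letters CACGTG count once on each strand. The Bnip3 stretch held 5 matches, and Pgk1 held 2 on opposite strands. Ldha held 5 before this start, which is 1 of its 2 annotated starts in the set, and Slc2a1 held 2.

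Cells were sorted into classes without using these genes. The 34 genes and 88 other genes of related pathways were left out of the clustering, although genes that vary with them were used. After filtering, 23328 cells of time 1 and 25833 of time 2 remained, with a median of 43649 and 50511 unique molecular identifiers (UMIs). The minimum of 18315 or 18645 UMIs acted unequally on the libraries. Before doublet removal it passed 25736 and 28249 barcodes, where a minimum of 5000 UMIs passed 39632 and 30489. Clusters named pluripotent stem cell-like held 8378 and 19192 cells, primed epiblast-like 6406 and 5216, fibroblast-like 469 and 679, mesendoderm-like 194 and 187, endoderm-like 61 and 111, endothelial-like 105 and 196, trophoblast-like 151 and 121, and two-cell-like 204 and 68. The pluripotent class was made up differently at each time. At time 1 the Dppa3-, Rhox9-, Jam2-, Klhl13- and Xist-led clusters held most of it, and at time 2 the Nanos3- and Gm46332-led clusters, while the Jam2-led cluster had 1125 cells at time 1 and 2000 at time 2. The Fgf8-led cluster made up most of the primed class at time 1 and the Car2-led cluster most of it at time 2. An unnamed Spry2-led group of 6311 cells at time 1 had 27 cells at time 2, and an unnamed H19-led group had 994 and 34. Only 165 cell barcodes were kept in both libraries. Classes were named from lists of marker genes, and some classes also held markers of others. Fibroblast markers reached 2414 and 1708 counts-per-million (CPM) of UMIs in fibroblast-like cells against 6.5 and 6.0 in pluripotent cells, and primed epiblast markers 937 and 810 CPM in primed cells against 210.2 and 122 in pluripotent cells. Fibroblast-like cells also held 3482 and 3234 CPM of pluripotency markers, and the part of free RNA or of joined cells in this was not tested. Their primitive or parietal endoderm markers, a list with matrix genes such as Sparc and Col4a1, summed to 2062 and 2052 CPM, above their fibroblast markers at time 2, against 154.7 and 174 CPM in pluripotent cells. Endothelial-like cells held 430 and 956 CPM of these endoderm markers and 242 and 688 CPM of endothelial markers. Mesendoderm-like cells held 1850 and 1714 CPM of primed epiblast markers, more than the primed cells. Their mesendoderm markers summed to 1384 and 1216 CPM. The unnamed Spry2- and H19-led groups were left out of the pluripotent class. Their pluripotency markers summed to 8456 and 11307 CPM at time 1, against 10989 CPM in that class.

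UMIs were summed over the cells of a class in a library and expressed as CPM, and 2 sums were compared as the log2 ratio of CPM plus 1. A gene counted as higher or lower when that ratio reached 1.5-fold, provided that 1 of the sums was 10 CPM or more. The intervals given are 95% Poisson or binomial intervals and cover counting error only. UMIs of different genes are set side by side only as sums and as shares within pairs of related genes, which are not corrected for gene length and do not rank transcript levels. In pooled cells a lower sum can mean fewer transcripts in every cell or fewer cells with many.

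**Figure D1:**
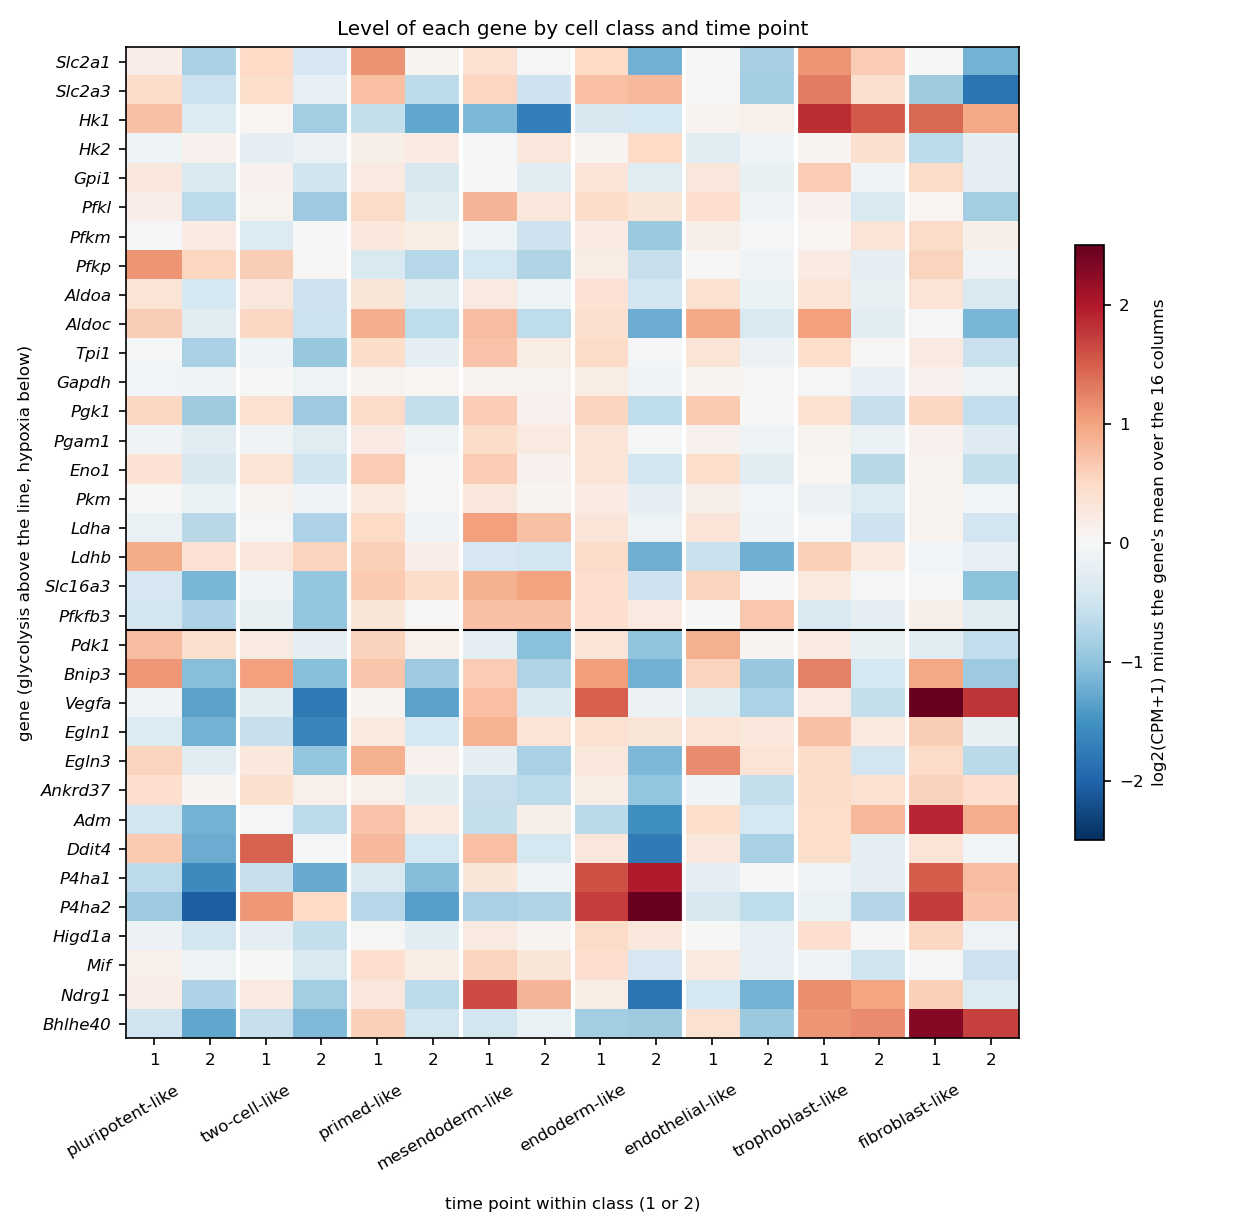
Each square is the level of 1 of the 34 genes (rows) in 1 cell class at time 1 or time 2 (columns), as log2(CPM+1) minus that gene's mean over the 16 columns, red above and blue below. Within most classes the time 2 column is bluer than the time 1 column, as for Bnip3 at 273 and 61.4 CPM in pluripotent cells, while Vegfa and Bhlhe40 are deep red in fibroblast-like cells and P4ha2 in endoderm-like cells.

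After 10 further passages, most of the genes were lower in pluripotent cells. Of 31 genes with enough UMIs, 19 were at least 1.5-fold lower and 0 were higher, against 10.3% lower and 5.06% higher of all 7338 genes compared. The 19 comprised 11 of 19 glycolysis genes and 8 of 12 hypoxia genes, and 29 of the 31 ratios were below 0. Their median log2 ratio was -0.77, against -0.03 for all genes compared. The 20 glycolysis genes together made up 13381 CPM at time 1 and 9756 CPM at time 2, 0.729 times the earlier level. The 13 hypoxia genes other than Mif, which had more UMIs than those 13 together, summed to 992 and 533 CPM, or 0.537 times.

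Among the hypoxia genes, Bnip3, a mitochondrial outer membrane receptor that promotes removal of mitochondria, had the largest difference. It was at 273 CPM at time 1 and 61.4 CPM at time 2, a log2 ratio of -2.13, and the 95% interval of the plain CPM ratio was 0.223 to 0.227. Ddit4, a stress-induced inhibitor of mTORC1 signalling, was at 83.5 and 21.6 CPM (log2 ratio -1.90). Vegfa, the endothelial growth factor, was at 13.6 and 5.13 CPM (-1.26). The prolyl hydroxylases that modify collagen were lower as well, P4ha1 at 28.9 and 14.6 CPM (-0.94) and P4ha2 at 13.5 and 5.46 CPM (-1.16). Ndrg1, a stress-responsive protein linked to differentiation, was at 24.4 and 12.2 CPM (-0.95). The oxygen sensors Egln1 and Egln3, themselves hypoxia targets, were at 63.7 and 35.1 CPM and at 36.1 and 19.9 CPM (-0.84 and -0.83). Below the 1.5-fold limit lay Pdk1, the kinase that restrains pyruvate dehydrogenase, at 88.9 and 67.9 CPM (-0.38), Ankrd37 at 34.05 and 26.6 CPM (-0.34), the mitochondrial protein Higd1a at 320.4 and 256.6 CPM (-0.32) and the cytokine Mif at 2286 and 1922 CPM (-0.25). Bhlhe40, a transcriptional repressor, and Adm, the vasodilator peptide adrenomedullin, had under 10 CPM at both times and were not compared. Apart from Mif, Higd1a and Bnip3 had the most UMIs of the hypoxia genes at time 1. They therefore weigh most in the sum without Mif, also where it is taken in single pluripotent cells.

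In the glycolytic chain the difference varied by step. Both glucose transporters were lower, Slc2a1 at 229.9 and 117.6 CPM (log2 ratio -0.96) and Slc2a3 at 409 and 206 CPM (-0.99). The hexokinases, which trap glucose in the cell, parted: Hk1 was at 28.7 and 13.05 CPM (-1.08), and Hk2 at 91.7 and 109 CPM (0.25). Hk1 thus supplied 23.8% of hexokinase 1 and 2 UMIs at time 1 (95% binomial interval 23.5 to 24.2%) and 10.7% at time 2 (10.5 to 10.9%). Of the middle steps, Gpi1 (-0.63), Pfkl (-0.82), Aldoa (-0.78), Aldoc (-0.89) and Tpi1 (-0.77) were past the limit, while Pfkp (-0.56) and Pfkm (0.25), the other phosphofructokinase genes, were not. Neighbouring steps of the later chain differed in size. Pgk1, phosphoglycerate kinase, was at 1545 and 589.5 CPM (-1.39), whereas Gapdh, the enzyme before it, was at 3079 and 3032 CPM (-0.02), and Pgam1, the enzyme after it, at 997 and 869 CPM (-0.20). Pgk1 is X-linked, and the numbers of X-high and X-low cells, as defined with the X dosage results, were 4446 and 2695 at time 1 and 3064 and 13679 at time 2. Within X-high cells Pgk1 was at 1840 and 971 CPM (-0.92), and within X-low cells at 1138 and 499.8 CPM (-1.19). X-low cells were 89.9% Dppa3-led at time 1, and 46.6% Nanos3-led, 51.2% Gm46332-led and 1.64% Dppa3-led at time 2, so these values do not compare like clusters. In X-low cells of the Dppa3-led cluster Pgk1 was at 1153 and 933.5 CPM. Enolase Eno1 was lower (-0.75), and the pyruvate kinase gene Pkm was at 1654 and 1488 CPM (-0.15). At the end of the chain, Ldha was at 1271 and 882 CPM (-0.53) and Ldhb at 286 and 193 CPM (-0.56), both under the limit, and the lactate exporter Slc16a3 was lower at 94.1 and 56.4 CPM (-0.73). Pfkfb3, which makes the activator of phosphofructokinase, was at 4.14 and 3.15 CPM and was not compared. Gapdh, Pgk1, Eno1, Pgam1, Ldha and several others have near-identical copies elsewhere in the genome, and how reads shared with those copies were assigned was not tested.

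The size of the difference depended on which cells were set side by side. Within the Dppa3-led cluster, which had 3505 cells at time 1 and 394 at time 2, 3 of 32 genes were lower, against 1.09% of all genes compared there. These were Bnip3 at 288 and 186 CPM (log2 ratio -0.62), Aldoc at 31.8 and 20.7 CPM (-0.60) and Vegfa at 10.2 and 6.17 CPM (-0.65). Ddit4, at 72.7 and 74.7 CPM, Slc2a1, at 198 and 195 CPM, and Hk1, at 21.3 and 22.3 CPM, differed by 0.04, -0.02 and 0.065 in log2. The summed hypoxia genes without Mif were at 1036 and 915 CPM, 0.883 times, and the summed glycolysis genes at 0.884 times. In the Jam2-led cluster, with 1125 and 2000 cells, 11 of 30 genes were lower (3.42% of all genes), and the 2 sums were at 0.680 and 0.761 times. Bnip3 there was at 184 and 71.9 CPM (-1.35), and Pgk1 at 1747 and 1032 CPM (-0.76). The Rhox9-led cluster had 8 of 31 lower (2.16%), the Klhl13-led cluster 4 of 31 (2.36%), the Aqp3-led cluster 13 of 31 (4.73%) and the Nanos3-led cluster 6 of 29 (4.16%), with hypoxia sums between 0.686 and 0.777 times the time 1 level. The clusters were drawn from other genes of the same cells, so cells of both times within a cluster were alike in those genes by construction. Bnip3 was second among the 10 leading genes of the Dppa3-led cluster although it was not used for clustering. In pluripotent cells of low X dosage 24 of 32 genes were lower (8.69%), and in those of high X dosage 15 of 30 (6.48%). The clusters that made up both sets changed between the times, in X-low cells as given for Pgk1, and in X-high cells from 32.0% to 5.16% Rhox9-led and from 23.3% to 61.7% Jam2-led. The part of this change in both counts was not tested. Calls of chromosome gains, as defined with the chromosome 8 results, differed between the times too. Of 8378 pluripotent cells at time 1, 807 were called with a chromosome 8 gain and 7073 without gains. At time 2 these were 9221 and 3692 of 19192. The part of gains in the time differences was not tested.

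**Figure D2:**
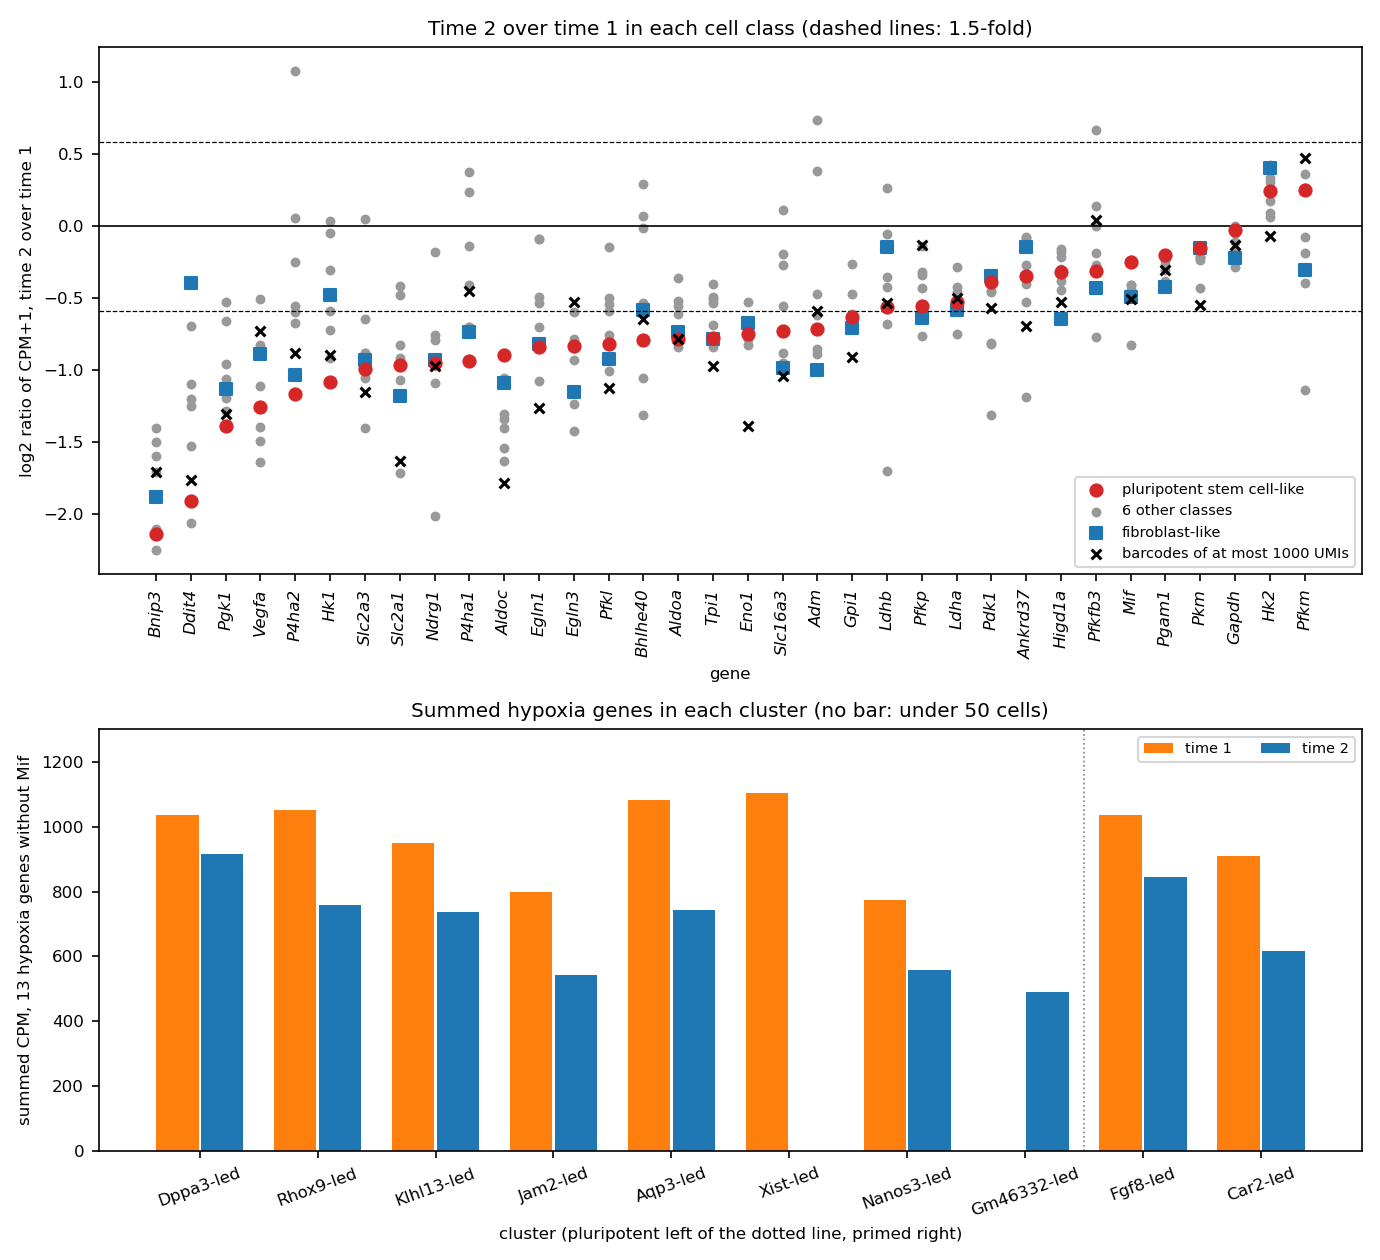
Top: log2 ratio of CPM+1, time 2 over time 1, for each of the 34 genes in pluripotent cells (red), fibroblast-like cells (blue squares), 6 other classes (grey) and barcodes of at most 1000 UMIs (crosses), with dashed lines at 1.5-fold. Bottom: summed CPM of the 13 hypoxia genes other than Mif in each cluster at both times, lower at time 2 in every cluster with both bars and closest to the time 1 level in the Dppa3-led cluster, at 915 against 1036 CPM.

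The lower levels at time 2 ran across the classes. In primed cells 19 of 32 genes were lower and 0 higher, against 7.74% lower and 3.94% higher of all genes, and the sums were at 0.735 times for glycolysis and 0.609 times for hypoxia genes without Mif. Within the 2 primed clusters the counts were 5 of 33 in the Fgf8-led cluster (2.39%) and 13 of 31 in the Car2-led cluster (6.5%). Fibroblast-like cells had 20 of 33 lower and 0 higher, against 5.54% and 5.19% of all genes, and two-cell-like cells 21 and 0 of 30, against 10.5% and 5.78%. Mesendoderm-like cells had 9 and 0 of 31, against 8.31% and 3.95%, and trophoblast-like cells 9 and 0 of 32, against 5.37% and 2.89%. Endothelial-like cells had 12 lower and 1 higher of 33, against 6.57% and 7.24%, and endoderm-like cells 18 and 1 of 31, against 13.6% and 14.8%. Bnip3, Aldoc and Egln3 were lower in all 8 classes, Bnip3 with log2 ratios from -2.25 to -1.399. Pgk1, Eno1, Slc2a3, Vegfa, Ddit4 and Ndrg1 were lower in 7 of 8. Gapdh, Pkm, Pgam1 and Hk2 passed the limit in 0 of 8, and Hk2 was the 1 gene whose ratio was above 0 in every class. Higher calls were limited to P4ha2 in endoderm-like cells and Pfkfb3 in endothelial-like cells, at 6.06 and 10.2 CPM (log2 ratio 0.67).

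Barcodes with at most 1000 UMIs, taken as a measure of free RNA, showed the same direction. They numbered 4488 of 145288 barcodes at time 1 and 7496 of 52242 at time 2. The smallest barcodes in the deposited data had 500 and 524 UMIs, so emptier ones were absent. Whether those used were empty droplets was not tested. There 19 of 32 genes were lower at time 2 (11.6% of all genes), the glycolysis sum went from 14172 to 9067 CPM and the hypoxia sum without Mif from 959 to 504 CPM. Free RNA was not subtracted from the cells, and its part in the difference within small classes was not tested. In the 194 and 360 fibroblast-like cells with under 1500 CPM of pluripotency markers, 19 of 32 genes were lower (4.66%), with Bnip3 at 251 and 74.5 CPM (-1.74).

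Genes outside the 34 placed the difference within the wider pathway. Of 20 further hypoxia-inducible factor targets compared in pluripotent cells, 9 were lower and 1 was higher at time 2, with a median log2 ratio of -0.44, where 10.3% of all genes were lower and 5.06% higher. Ndufa4l2, an inhibitor of mitochondrial complex I activity, was at 66.4 and 14.6 CPM (-2.12), Anxa2 at 73.7 and 29.1 CPM (-1.31) and Zfp395 at 10.9 and 5.14 CPM (-0.95), while Angptl4 was at 9.34 and 14.7 CPM (0.60). In the Dppa3-led cluster the same list had 0 of 17 lower and 1 higher, with a median of 0.03, where 1.09% of all genes were lower and 0.963% higher. The next lists, all in pluripotent cells, are to be read against the same shares and had at most 1 gene past the limit in each direction. The oxygen-sensing and factor subunit genes gave 0 lower and 1 higher of 9: Hif1a, the main alpha subunit, was at 47.6 and 44.9 CPM (-0.08), and Epas1, the second alpha subunit, at 8.13 and 14.3 CPM (0.74). Of 6 pentose phosphate genes 0 passed the limit, and of 8 genes of pyruvate entry to mitochondria 1 was lower, Pdk3 (-0.61). Among 8 other sugar genes, Pgm1 was at 48.8 and 22.3 CPM (-1.09), and Tigar, a brake on glycolytic flux, was at 31.6 and 56.0 CPM (0.81).

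Fewer genes passed the limit between primed epiblast-like and pluripotent cells of the same library. At time 1, 5 of 32 genes were higher and 2 lower, against 10.7% and 10.1% of all genes, and at time 2, 7 of 30 were higher and 2 lower, against 9.69% and 8.31%. The counts of higher genes were above the share of all genes, and those of lower genes below it. Both directions together were near that share at time 1. All 7 genes past the limit at time 1 passed in the same direction at time 2. Slc16a3, the lactate exporter, was at 197 CPM in primed and 94.1 CPM in pluripotent cells at time 1, and at 172 and 56.4 CPM at time 2 (log2 ratios 1.06 and 1.59). Slc2a1 was at 452 and 229.9 CPM, then 216 and 117.6 CPM (0.97 and 0.87). Ldha was higher by 0.66 and 0.61, Egln1 by 0.59 and 0.73 and Bhlhe40 by 1.10 and 0.84 on the log2 scale. Hk1 was lower, at 10.9 and 28.7 CPM, then 6.24 and 13.05 CPM (-1.32 and -0.96), and so was the platelet-type phosphofructokinase Pfkp, at 35.4 and 99.7 CPM, then 27.8 and 67.6 CPM (-1.47 and -1.25). Tpi1 (0.59) and Ddit4 (0.81) passed at time 2 only, and no difference between times was tested. The glycolysis sum was 1.17 and 1.18 times that of pluripotent cells, with the Fgf8-led cluster providing most primed cells at time 1 and the Car2-led cluster at time 2.

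**Figure D3:**
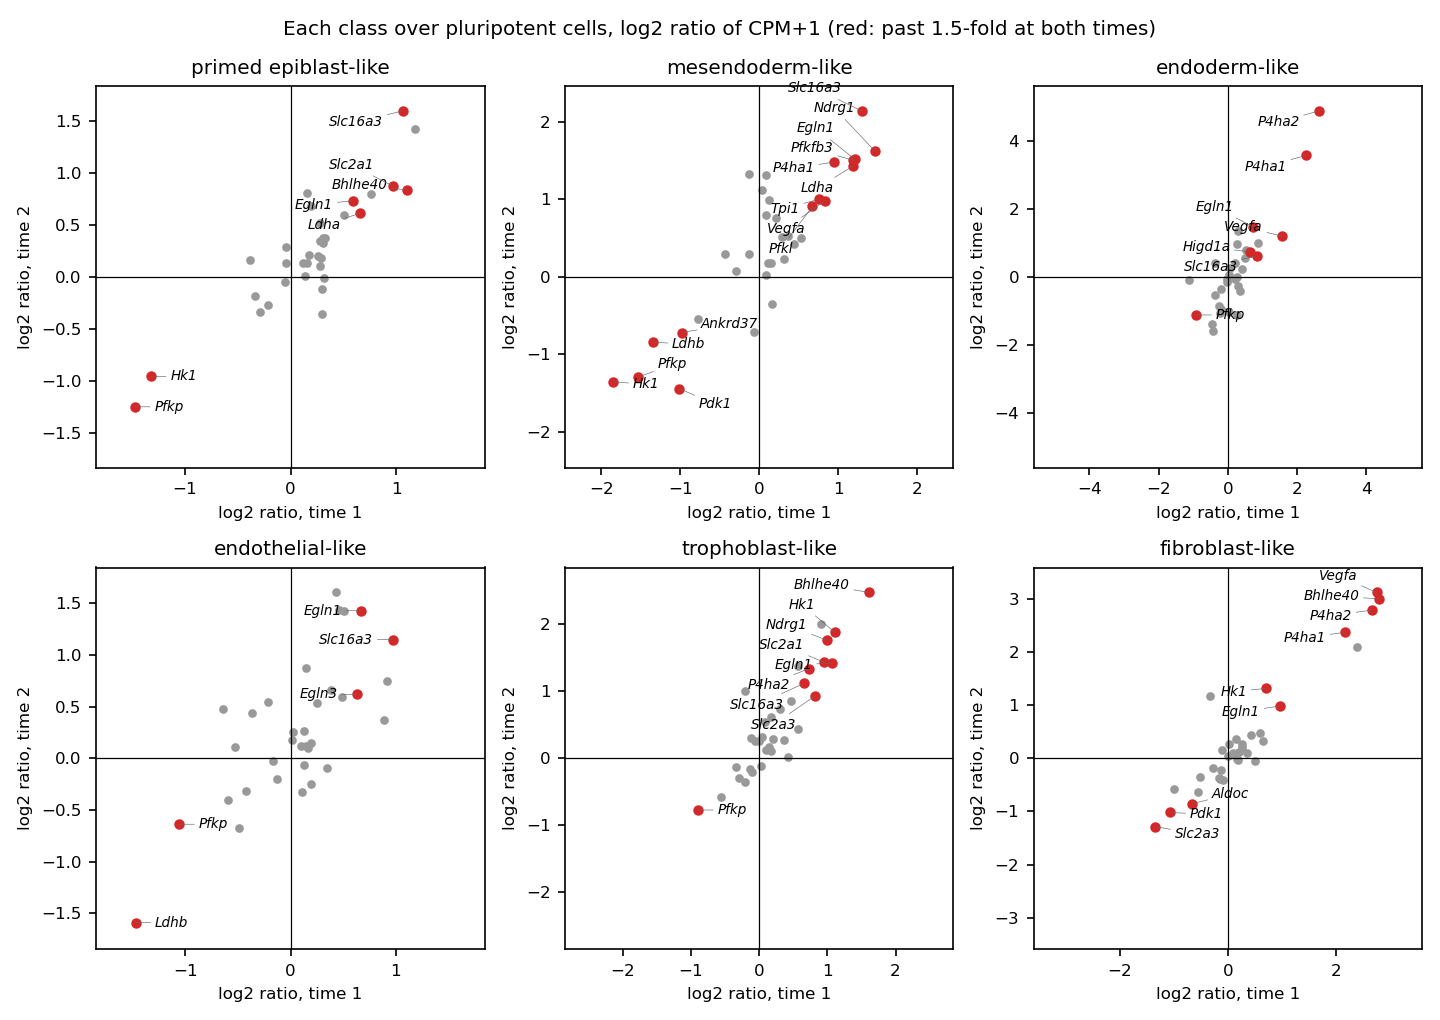
Each panel plots the 34 genes in 1 class against pluripotent cells, as log2 ratio of CPM+1 at time 1 (horizontal) and time 2 (vertical), with genes past 1.5-fold in 1 direction at both times in red. Slc16a3 is at the top right in primed and mesendoderm-like cells, P4ha2 in endoderm-like cells at 2.63 and 4.88, and Vegfa and Bhlhe40 in fibroblast-like cells.

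Mesendoderm-like cells carried the highest summed glycolysis levels among the named classes at both times, 16764 and 13860 CPM, or 1.253 and 1.42 times those of pluripotent cells. The unnamed Spry2-led group, which is not part of the pluripotent class, was higher at time 1, at 17262 CPM. Of 32 genes at time 1, 9 were higher and 6 lower (19.3% and 14.9% of all genes), and of 33 at time 2, 14 and 6 (21.3% and 15.6%). Ldha was at 2894 CPM against 1271 at time 1 and at 2375 against 882 at time 2 (log2 ratios 1.19 and 1.43). Slc16a3 was at 233 and 252 CPM, 1.299 and 2.14 above pluripotent cells, and Ndrg1 at 69.1 and 39.6 CPM (1.47 and 1.62). Egln1, Pfkfb3, P4ha1, Vegfa, Tpi1 and Pfkl were also higher at both times. Several alternative forms were lower: Hk1 (-1.85 and -1.35), Pfkp (-1.53 and -1.29) and Ldhb (-1.35 and -0.84), as were Pdk1 and Ankrd37. Ldhb made up 3.71% of lactate dehydrogenase UMIs in these cells and 18.4% in pluripotent cells at time 1, and 4.33% and 17.98% at time 2. Egln3 was lower at time 1 only (-0.78). At time 2 only, Slc2a1 (0.76), Pgk1 (0.99), Ddit4 (0.79), P4ha2 (1.31) and Bhlhe40 (1.12) were higher, and Pfkm (-0.71) was lower.

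Endoderm-like cells had the collagen prolyl hydroxylases above pluripotent cells at both times. At time 1 the fibroblast-like cells had similar levels, with P4ha2 at 90.3 and P4ha1 at 134 CPM, and at time 2 lower ones, at 43.6 and 80.0 CPM. P4ha2 was at 88.7 CPM against 13.5 in pluripotent cells at time 1, and at 189 against 5.46 at time 2 (log2 ratios 2.63 and 4.88). P4ha1 was at 142 against 28.9 CPM and at 185 against 14.6 CPM (2.26 and 3.57). Vegfa, Egln1, Higd1a and Slc16a3 were higher at both times and Pfkp lower. Other hypoxia genes were lower at time 2, Ndrg1 at 5.40 against 12.2 CPM (-1.04), Egln3 at 10.6 against 19.9 CPM (-0.86), Ankrd37 at 12.2 against 26.6 CPM (-1.07) and Pdk1 at 25.2 against 67.9 CPM (-1.39), as were Ldhb, Aldoc and Pfkm. Slc2a3, Pfkl and Tpi1 were higher at time 2, and Hk1 was lower at time 1. In all, 6 of 31 genes were higher and 2 lower at time 1 (14.9% and 11.8%), and 9 and 8 of 31 at time 2 (21.3% and 12.5%). Against the trend of other classes, P4ha2 was higher at time 2 within these cells (1.08, plain CPM ratio 1.83 to 2.48), P4ha1 did not pass (0.38), and Slc2a3 was at 504 and 523 CPM while Slc2a1 went from 293 to 88.6 CPM (-1.71). Summed endoderm markers in this class went from 2641 to 4156 CPM and pluripotency markers from 5916 to 3499 CPM, with 61 and 111 cells, and the part of this makeup in the differences was not tested.

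Trophoblast-like cells had 8 of 31 genes higher and 1 lower at time 1 (16.4% and 7.99%), which became 7 and 2 under trimmed mean scaling, and 12 and 1 of 31 at time 2 (22.3% and 11.3%). Bhlhe40 was at 32.5 against 9.98 CPM, then 34.3 against 5.34 CPM (1.61 and 2.48). Slc2a1 was at 444 and 319.9 CPM (0.95 and 1.44) and Hk1 at 63.0 and 50.8 CPM (1.11 and 1.88), the highest Hk1 level among whole classes at each time. Slc2a3, Slc16a3, Ndrg1, Egln1 and P4ha2 were higher at both times, and Pfkp was lower. Tpi1 (0.85), Bnip3 (0.61), Ddit4 (0.999) and P4ha1 (1.38) were higher at time 2 only. Endothelial-like cells had 4 higher and 4 lower of 32 at time 1 (13.9% and 11.6%), or 3 and 5 under trimmed mean scaling, and 9 and 3 of 31 at time 2 (20.9% and 11.8%). The 4 and 4 at time 1 were near the shares of all genes. Slc16a3, Egln1 and Egln3 were higher at both times, Egln3 at 56.6 and 31.1 CPM (0.63 and 0.62), and Ldhb was lower at 102 and 63.6 CPM (-1.47 and -1.59), with Pfkp. At time 1 alone Bhlhe40 was also higher (0.89), and Hk1 (-0.64) and Ndrg1 (-0.60) lower. At time 2 alone Tpi1 (0.67), Pgk1 (0.88), Ldha (0.59), Pfkfb3 (1.44), P4ha1 (1.60) and P4ha2 (1.43) were higher, and Ankrd37 (-0.68) was lower. Two-cell-like cells, a rare state that expresses genes of the early embryo, had 2 higher and 2 lower of 30 at time 1 (7.98% and 4.65%) and at time 2 (7.84% and 3.75%). The counts of higher genes were near those shares. P4ha2 was at 56.5 and 37.2 CPM in them (1.99 and 2.56) and Ddit4 at 147 and 50.5 CPM (0.81 and 1.19), both higher at both times. The lower genes differed, Hk1 (-0.69) and Ldhb (-0.64) at time 1 and Pdk1 (-0.63) and Egln3 (-0.70) at time 2.

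Fibroblast-like cells, the class in which the irradiated feeders would fall, were also set against pluripotent cells. At time 1, 8 of 33 genes were higher and 4 lower, and at time 2, 7 and 4 of 32, against 26.5% and 29% and then 27.2% and 25.4% of all genes. The shares among the 34 were below the background in both directions. Of the higher genes all but Hk1 were hypoxia genes at both times, and this split was not set against a background. Vegfa was at 97.7 against 13.6 CPM at time 1 and at 52.4 against 5.13 CPM at time 2 (2.75 and 3.12). Bhlhe40 was at 74.9 and 49.7 CPM (2.79 and 3.00), P4ha2 at 90.3 and 43.6 CPM (2.66 and 2.79) and P4ha1 at 134 and 80.0 CPM (2.17 and 2.37). Egln1 and Hk1 were higher at both times too, and Adm, at 16.3 against 2.31 CPM, and Higd1a (0.66) at time 1, and Ddit4 (1.18) at time 2. The glucose transporter Slc2a3 was at 161 and 83.9 CPM (-1.34 and -1.29), and Pdk1 and Aldoc were also lower, with Ldhb (-0.996) at time 1 and Pfkp (-0.63) at time 2. In the fibroblast-like cells with few pluripotency UMIs, Slc2a3 was at 45.4 and 20.6 CPM (-3.15 and -3.26), Ldhb at 61.1 and 68.8 CPM and Vegfa at 146 and 84.6 CPM (3.33 and 3.80), with 8 higher and 7 lower of 33 at time 1 and 9 and 9 of 33 at time 2 (33.1% and 37.2%, then 36.3% and 35.8%). Barcodes of at most 1000 UMIs held Slc2a3 at 681 and 306 CPM.

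Isoform genes of 1 step were used in different proportions by class. At time 1, Pfkp gave 40.9% of Pfkp and Pfkl UMIs in pluripotent cells (40.6 to 41.1%), 16.5% in primed cells (16.3 to 16.8%), 12.8% in mesendoderm-like cells (11.4 to 14.2%) and 33.9% in fibroblast-like cells (32.6 to 35.2%). At time 2 the shares were 45.4, 20.9, 14.9 and 38.3%, in the same order. Hk1 gave 42.8% of Hk1 and Hk2 UMIs in fibroblast-like cells and 8.89% in primed cells at time 1, and 28.6% and 5.06% at time 2, so the Hk1 share was smaller at time 2 in these as in all pluripotent cells together. Within clusters of pluripotent cells the share differed less or in the other direction in some, at 18.5% and 16.4% in the Dppa3-led cluster, 42.4% and 40.04% in the Rhox9-led cluster and 26.8% and 35.6% in the Aqp3-led cluster, while in the Jam2-led cluster it was 14.9% and 7.67%. Slc2a1 gave 35.96% of Slc2a1 and Slc2a3 UMIs in pluripotent cells at time 1 and 36.4% at time 2, since both transporters were lower alike, and 47.3% and 53.1% in primed cells. In endoderm-like cells that share was 36.8% and 14.5%. P4ha2 gave 64.7% and 66.7% of P4ha1 and P4ha2 UMIs in two-cell-like cells and 31.8% and 27.1% in pluripotent cells.

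In single cells of the pluripotent class, whose clusters differ between the times, medians and quartiles of both sums were lower at time 2. After thinning each cell to 10000 UMIs, the median pluripotent cell had 133 glycolysis UMIs at time 1, with quartiles of 116 and 152, and 95 at time 2, with quartiles of 79 and 114. For the 13 hypoxia genes without Mif the medians were 10 (7 to 13) and 5 (3 to 7). With all UMIs, scaled to 10000, the medians were 132.6 and 94.96 for glycolysis and 9.72 and 4.87 for hypoxia genes. Within the Dppa3-led cluster the shift was smaller and the quartiles overlapped, with glycolysis medians of 135 (quartiles of 120 and 153) and 122 (98 and 142) and hypoxia medians of 10 (7 to 13) and 8 (6 to 12). Within the Jam2-led cluster the glycolysis medians were 133 (115 to 152) and 98 (82 to 121). In endoderm-like cells the median hypoxia sum was 11 at both times after thinning, and 12.2 and 10.1 with all UMIs. Across pluripotent cells the 2 sums had a Spearman correlation of 0.31 at time 1 (8378 cells) and 0.41 at time 2 (19192 cells), or 0.46 and 0.58 with all UMIs. Both sums are shares of the same cell's UMIs, and their correlations with total UMIs in pluripotent cells were between -0.17 and -0.04. In the Dppa3-led cluster the correlation was 0.25 at time 1 and 0.46 at time 2, and in the Jam2-led cluster 0.28 and 0.55.

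**Figure D4:**
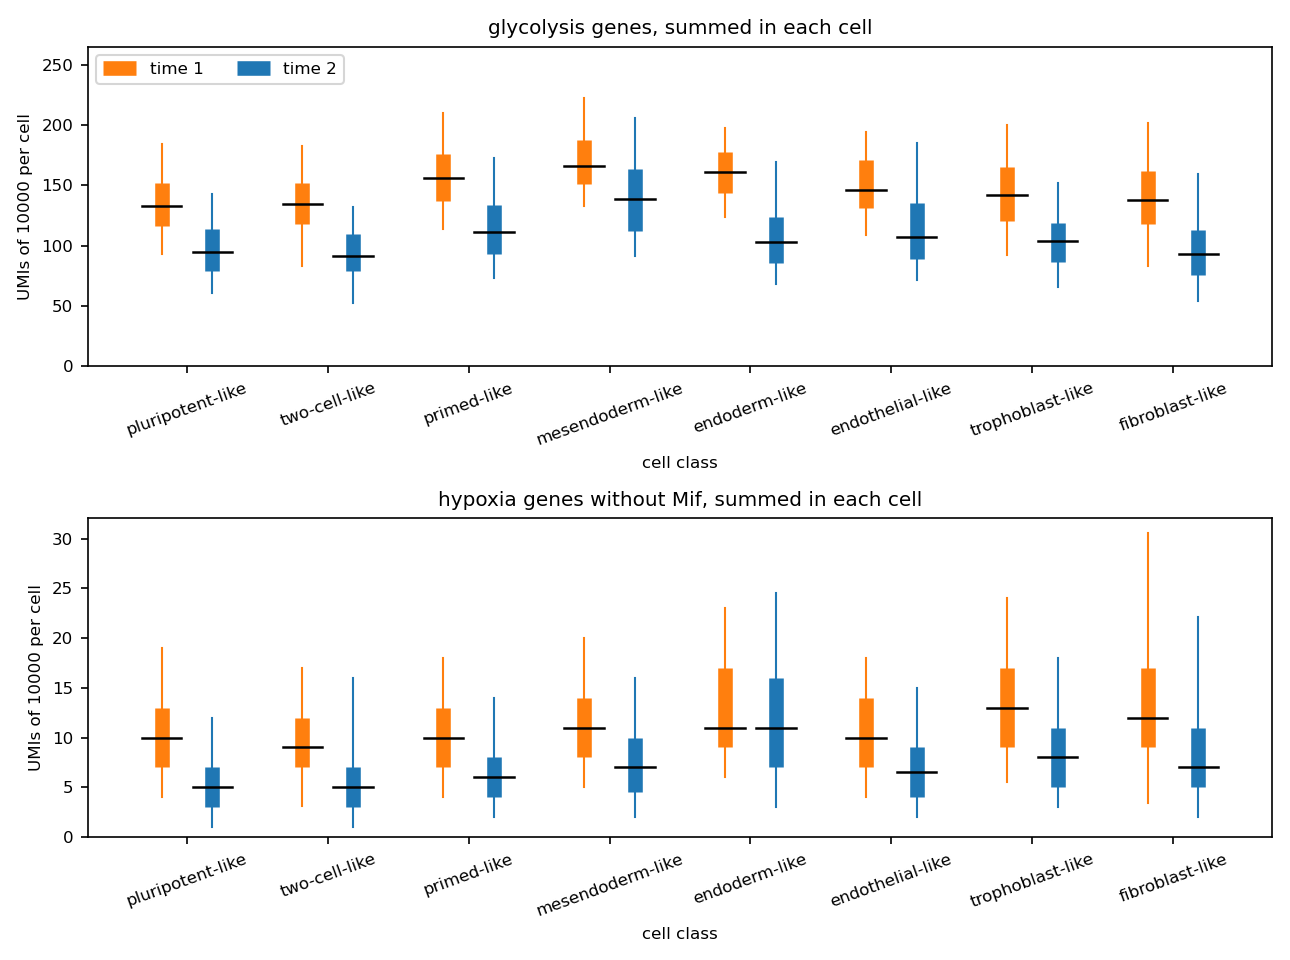
UMIs of the 20 glycolysis genes (top) and of the 13 hypoxia genes other than Mif (bottom) per cell thinned to 10000 UMIs, by class and time, with medians as black lines, quartiles as boxes and the 5th and 95th percentiles as thin lines. Pluripotent medians go from 133 to 95 and from 10 to 5, and the quartile boxes of the 2 times do not overlap for glycolysis in pluripotent cells.

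The 10% of cells with the most hypoxia UMIs within a cluster was compared with the rest for the glycolysis genes, which had no part in the ranking. This top 10% is a range of a continuous score: in the Dppa3-led cluster it began at 17 UMIs, with 70 of 3505 cells at that value at time 1 and 12 of 394 at time 2. Pgk1 was higher in it by 0.32 and 0.66 on the log2 scale, Aldoc by 0.35 and 1.02 and Ldha by 0.12 and 0.45. Ldhb varied by cluster, at 0.003 and -0.21 there, at 0.21 and 0.26 in the Jam2-led cluster, at 0.19 in the Rhox9-led cluster at time 1 and at -0.16 in the Car2-led cluster at time 2. In the fibroblast-like cells, Slc2a3 was lower in the top 10%, at 48.0 against 176 CPM at time 1 (-1.85) and 43.1 against 86.6 CPM at time 2 (-0.99). The fibroblast-like cells with few pluripotency UMIs had Slc2a3 at 45.4 and 20.6 CPM and a hypoxia sum without Mif of 1756 and 1044 CPM, against 1510 and 844 CPM in the whole class, and the part of this mixture in the difference was not tested. In the Jam2-led cluster, where the top 10% began at 13 and 10 UMIs, the differences were larger at time 2, with Pgk1 at 0.29 and 0.92, Slc16a3 at 0.17 and 0.92, Tpi1 at 0.23 and 0.91 and Slc2a1 at 0.24 and 0.74. Gapdh differed by 0.08 and 0.20 there, and Pfkm by 0.04 and 0.07. The levels beneath were, for Pgk1 in the Jam2-led cluster, 2093 CPM in the top 10% and 1710 in the rest at time 1, and 1806 and 952 CPM at time 2.

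The lines differ in their sex chromosomes, and cells were also compared by X dosage. Pgk1 is the 1 X-linked gene of the 34 (build GRCm38, chromosome X). Among pluripotent cells without Y-linked UMIs, X-high cells had an X-linked UMI share of at least 1.2 times the median of Y-positive cells, computed without the 34 genes. In them Pgk1 was at 1840 CPM against 1138 in X-low cells at time 1 and at 971 against 499.8 at time 2 (log2 ratios 0.69 and 0.96). X-high and X-low cells fell into different clusters: 89.9% of X-low cells and 5.29% of X-high cells at time 1 were in the Dppa3-led cluster. Within it Pgk1 was at 1634 against 1153 CPM at time 1 (0.50) and at 987 against 933 CPM at time 2 (0.08). Within the Nanos3-led cluster at time 2 it was at 713 against 495 CPM (0.52). In all, 4 genes were higher in X-high cells and 3 lower of 32 at time 1 (6.41% and 1.92%), or 2 and 4 under trimmed mean scaling, and 6 and 3 of 29 at time 2 (7.88% and 2.4%). The autosomal Ndrg1 was higher at both times (0.61 and 0.99), and Aldoc and Pdk1 were lower at both (-0.93 and -0.59, then -0.80 and -0.83). At time 1 the others were Hk1 and Vegfa, higher, and Ldhb, lower, and at time 2 Slc2a1, Slc2a3, Pfkp and Ddit4, higher, and Pfkm, lower. In the Dppa3-led cluster 0 of 32 passed at time 1 (1.99% higher and 0.401% lower of all genes), and at time 2 1 of 31, P4ha2 (0.69), which was higher (1.78%).

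Ankrd37 and Egln1 lie on chromosome 8. In pluripotent cells called as carrying a chromosome 8 gain, with at least 1.3 times the time 1 median share of UMIs from it, Ankrd37 was at 57.5 CPM against 31.7 in cells without gains at time 1 (0.84) and at 29.7 against 25.8 at time 2 (0.20). Cells without gains had no autosome at that limit. Those with the chromosome 8 gain could also carry gains of other autosomes, so the contrast is not of chromosome 8 alone. Egln1 was at 84.4 against 61.9 CPM (0.44) and at 36.003 against 35.8 CPM (0.01). Within the Dppa3-led cluster Ankrd37 differed by 0.68 and 0.73 and Egln1 by 0.51 and 0.46, and within the Nanos3-led cluster at time 2 Ankrd37 differed by 0.11 and Egln1 by 0.16. Of the 34 genes, 1 was higher and 2 lower of 31 compared at time 1 (2.1% and 5.08%), and 1 and 5 of 29 at time 2 (1.53% and 6.15%). Hk1 and Ndrg1 were the lower genes at time 1. At time 2 Pdk1 was higher, and Slc2a1, Slc2a3, Pfkp, Pgk1 and Ndrg1 were lower. These counts set 807 cells with the gain against 7073 without gains at time 1, and 9221 against 3692 at time 2. At time 1, 90.8% of cells with the gain and 36.1% of those without gains were Dppa3-led. At time 2, cells with the gain were 56.5% Nanos3-led and 41.1% Gm46332-led, while 51.8% of those without gains were Jam2-led. The part of these clusters in the counts was not tested. Cells with the gain had a median X dosage of 0.951 at time 1, against 1.65 in cells without gains, so gain and X dosage moved together and their parts were not tested.

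**Figure D5:**
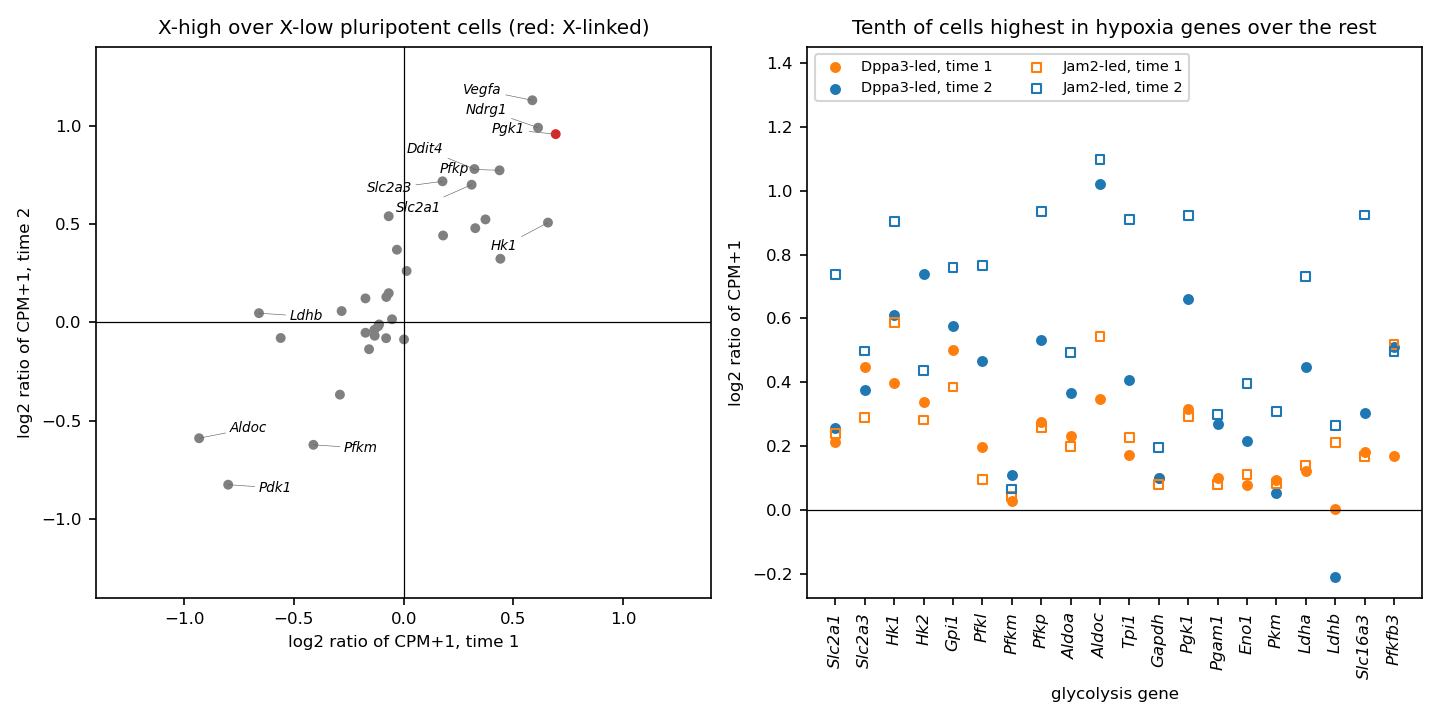
Left: log2 ratio of CPM+1 of each of the 34 genes in X-high over X-low pluripotent cells at time 1 (horizontal) and time 2 (vertical), with the X-linked Pgk1 in red at 0.69 and 0.96. Right: the 20 glycolysis genes in the 10% of cells highest in hypoxia genes over the rest of the cluster, for the Dppa3-led (filled) and Jam2-led (open) clusters at time 1 (orange) and time 2 (blue), where Slc16a3 in Jam2-led cells is at 0.17 and 0.92.

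Genes whose pattern was most like the summed hypoxia genes were sought over 34 combinations of cluster and library, among 10490 genes. With Mif in the sum they were Psmb9 (Pearson correlation 0.83), Pgm1 (0.82), Fam162a (0.82), Eef1akmt2 (0.81) and Eno1b (0.81). Without Mif they were Sdf2 (0.91), Stx7 (0.91), Anxa4 (0.87), Tmem60 (0.87) and Tm2d1 (0.86), so the choice of 1 abundant gene replaced the whole list. For the summed glycolysis genes the leading ones were Insig1 (0.89), Rnf5 (0.87) and Pfdn4 (0.86). These points share libraries and depth, so the correlations are a description.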

How the data were processed

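The 2 libraries of pooled mouse embryonic stem cell cultures were 1 per time point, and the deposited files hold raw UMI counts per gene and barcode. Per the submitters' processing notes, the authors used bcl2fastq 2.20.0.422 and Cell Ranger 6.1.2 with mm10, GRCm38. The lipid tags of the lines were not used here, so cells were not mapped to lines. The libraries held 1735810403 and 1843588321 UMIs. Cells had at least 18315 or 18645 UMIs (0.1 of the 99th percentile of the largest barcodes), 1000 genes and at most 10% mitochondrial UMIs. In place of the planned caller, barcodes were scored against simulated sums of random cells. The highest-scoring ones, at most 10% of each library by a preset cut, were removed as doublets (2408 and 2416 barcodes). Cells were clustered on 2000 genes, 30 components and 15 neighbours (scanpy 1.11.5, igraph 0.11.9, resolution 0.5). Cluster borders depend on numerical choices, and the clustering was settled after earlier clusterings were seen. Trimmed mean scaling used edgeR 4.0.16 factors only. Every one of the 34 genes was to be named where it reached 10 CPM, and the genes, lists and classes were chosen with earlier results of these data known. Calculations of the counts were tested on simulated Poisson sums at the depth of the pluripotent class, with changes larger than the limit. Those sums held no variation between cells or libraries, so the test covers the arithmetic only. Alternatives changed the pseudocount, minimum level, fold limit, cell filters, doublets, resolution, scaling and the cells compared.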

Additional observations from a re-analysis of the deposited data

Results flagged for a closer look

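P4ha2, a collagen prolyl hydroxylase subunit, differed between the classes in its direction from time 1 to time 2. Its log2 ratio of time 2 over time 1 was -1.16 in pluripotent, -0.67 in primed, -1.03 in fibroblast-like and -0.59 in two-cell-like cells, and 1.08 in endoderm-like cells. In the other 3 classes it did not reach 1.5-fold, at 0.06 in mesendoderm-like, -0.25 in endothelial-like and -0.56 in trophoblast-like cells. With 1 library a time point the difference between classes was not tested. In the endoderm-like class, summed endoderm markers went from 2641 to 4156 CPM and pluripotency markers from 5916 to 3499 CPM, and their part was not tested.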

How the results depend on the processing

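No paired analysis was made because each time point has 1 library and cells were not mapped to lines. With 1 library a time point, no replicate could be left out. Of 182 alternatives for counts of the 34 genes past the limit, 148 stayed within 1.5 times and 34 moved. Those counts pool higher and lower genes and have no direction to reverse. Of 2167 alternatives for single genes, 1722 were alike, 440 moved and 5 reversed. Single ratios cannot change with the minimum level or the fold limit, so under those settings they were alike by construction. The counts that follow pool both directions and are given without the share of all genes at each setting. They show how the counts move and are not set against a background. With a 2-fold limit the count was 6 (19 at 1.5-fold) for time in pluripotent cells, 4 and 2 for primed cells at times 1 and 2, 9 and 12 for mesendoderm-like, 4 and 11 for endoderm-like, 3 and 8 for trophoblast-like, 2 and 6 for endothelial-like, 7 for fibroblast-like cells at time 1, and 0 at both times for X dosage. With a minimum of 50 CPM it was 12 for time in pluripotent cells, and at time 2 it was 10 for mesendoderm-like, 11 for endoderm-like, 8 for trophoblast-like, 7 for fibroblast-like and 7 for endothelial-like cells (5 at time 1), and 3 and 5 for X dosage. A pseudocount of 5 gave 5 for endothelial-like cells and 4 for X dosage at time 1. At time 1, X dosage gave 4 with 20% mitochondrial UMIs allowed, 4 at resolution 1.0 and 3 with the Spry2-led cells added, and endothelial-like cells gave 5 with doublets kept. Within the Dppa3-led cluster the count was 3 for time and 0 and 1 for X dosage, and within the Jam2-led cluster 11 for time. Fibroblast-like cells with few pluripotency UMIs gave 18 at time 2, against 11. Within the Dppa3-led cluster time ratios reversed for Hk1 (0.065), Slc16a3 (0.29), Ddit4 (0.039) and Ndrg1 (0.19), and that of X dosage at time 2 for Pfkp (-0.21). The cause was not tested. Trimmed mean scaling moved the median of all genes from -0.01 to -0.12 in endoderm-like cells at time 1 and from 0.07 to -0.07 in trophoblast-like cells. The settings within 1 cluster, with the Spry2-led cells added or with few pluripotency UMIs were chosen after seeing the data.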
